A study of Mus musculus with 78 samples.

Results

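The ZFP143 peak list of the series held 3189 regions, and 221 of them (6.93%) shared at least 1 bp with a region of the CTCF peak list, which held 22314 regions. These 221 regions, called shared peaks here, touched 222 CTCF peaks (0.995% of that list), and 2 shared peaks overlapped more than 1 CTCF peak. They were set against the 2968 ZFP143 peaks without a CTCF peak and the 22092 CTCF peaks without a ZFP143 peak, and the genes whose promoters they covered were followed through 3 gene count tables.

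All libraries came from E14TG2a mouse embryonic stem cells (mESCs) in which both alleles of Zfp143 carried an FKBP12F36V degron, a 2xHA tag and, after a P2A peptide, eGFP, so the DMSO controls carried the tag as well. The degrader dTAG-V1 was given at 500 nM, and DMSO was the control. ChIP-seq had 1 library per condition, DMSO or 6 h of dTAG for CTCF and DMSO or 2 h of dTAG for ZFP143. The CTCF list pools peaks of both its conditions, so part of it comes from depleted cells. TT-seq, which sequences RNA labelled for 10 min with 2 mM 4-thiouridine and so reads out recent transcription, covered DMSO and dTAG for 2, 6 or 24 h, and RNA-seq covered DMSO and dTAG for 24, 48 or 72 h. A second RNA-seq table held cells kept for 24 h in DMSO or dTAG, and the same conditions after a further 24 h with 1 µM retinoic acid (RA), when the medium also changed to a differentiation medium. Each group had 2 libraries, described as biological replicates of one engineered line, so every p-value measures the spread between such replicates and not between lines.

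ZFP143, the mouse form of human ZNF143, is a zinc finger activator that sits close to the transcription start sites of many housekeeping genes, where it reads a short promoter element beginning with the letters of an ACTACA box. CTCF is a zinc finger protein best known for stopping the loop-extruding cohesin complex at insulators and domain borders, and part of its sites also lie in promoters. A peak is a region where immunoprecipitated DNA exceeds the input, several times wider than the DNA that a protein touches, so that 2 overlapping peaks can hold separate binding sites.

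Printed here are the letters under some of the strongest shared peaks and under those of some genes described further on. These were chosen with their values known, and matches to fixed core letters are marked. An element that departs from these letters is not marked, so a missing match does not show that a protein had no element there. Each line gives the gene whose start lies at the peak, the plus strand of GRCm38 (mm10) from 5′ to 3′, and in capitals the matches to fixed core letters. These cores were CCNNNAGNNGGC for CTCF, and ACTACANTT or CCCANNATG for ZFP143, searched on both strands, so the capitals read in reverse complement where the match was on the minus strand.

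Rpgrip1l and Fto, chr8:91313295-91313455: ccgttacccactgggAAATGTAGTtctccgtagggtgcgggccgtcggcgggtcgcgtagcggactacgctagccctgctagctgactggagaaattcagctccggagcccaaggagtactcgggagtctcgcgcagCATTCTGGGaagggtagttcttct
Pafah2, chr4:134396184-134396283: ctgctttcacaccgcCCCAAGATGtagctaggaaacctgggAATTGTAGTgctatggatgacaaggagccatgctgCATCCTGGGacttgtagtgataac
Tfeb, chr17:47736945-47737053: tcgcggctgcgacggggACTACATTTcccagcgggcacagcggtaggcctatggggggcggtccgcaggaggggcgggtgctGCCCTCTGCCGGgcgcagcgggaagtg
Mrpl34 and Abhd8, chr8:71464774-71464936: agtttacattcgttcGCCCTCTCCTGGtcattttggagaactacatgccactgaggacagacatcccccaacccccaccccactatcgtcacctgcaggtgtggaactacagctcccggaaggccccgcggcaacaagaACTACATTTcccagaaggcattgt
Snapin, chr3:90491027-90491180: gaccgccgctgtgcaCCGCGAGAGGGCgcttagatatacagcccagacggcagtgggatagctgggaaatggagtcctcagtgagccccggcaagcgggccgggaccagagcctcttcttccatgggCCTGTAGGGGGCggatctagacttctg
Zfp90, chr8:106415214-106415275: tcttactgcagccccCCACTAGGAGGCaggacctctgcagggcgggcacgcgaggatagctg
Snx19, chr9:30426966-30427038: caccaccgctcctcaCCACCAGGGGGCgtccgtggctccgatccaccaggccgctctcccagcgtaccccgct
Gosr1, chr11:76763628-76763701: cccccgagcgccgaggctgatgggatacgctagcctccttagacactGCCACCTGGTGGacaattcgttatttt
Specc1, chr11:61956706-61956765: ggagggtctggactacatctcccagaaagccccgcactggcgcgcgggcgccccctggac

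The first 2 sequences held ZFP143 cores only, those of Tfeb and Mrpl34 held 1 core of each kind, and those of Snapin, Zfp90, Snx19 and Gosr1 held CTCF cores only. The Specc1 window, under the strongest shared peak of all, held no match to these letters, which says nothing of what was bound there.

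Shared peaks were, as a group, somewhat stronger than the other ZFP143 peaks. Their fold enrichment over input, as deposited, ranged from 4.12 to 185 with a median of 29.1 (quartiles 11.9 and 55.9), against 3.64 to 345 with a median of 20.2 (quartiles 9.51 and 43.4) for the 2968 others. The enrichment reached at least 50 in 65 shared peaks (29.4%) and in 19.6% of the others. All ZFP143 peaks were put into 4 classes of about equal size by enrichment. In the strongest class 78 of 798 peaks (9.77%) were shared, against 55 of 801 (6.87%), 48 of 814 (5.90%) and 40 of 776 (5.15%) in the next classes, so the share fell from class to class. The list was called once, without replicates, so the difference in enrichment has no replicate error and was not tested.

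**Figure D1:**
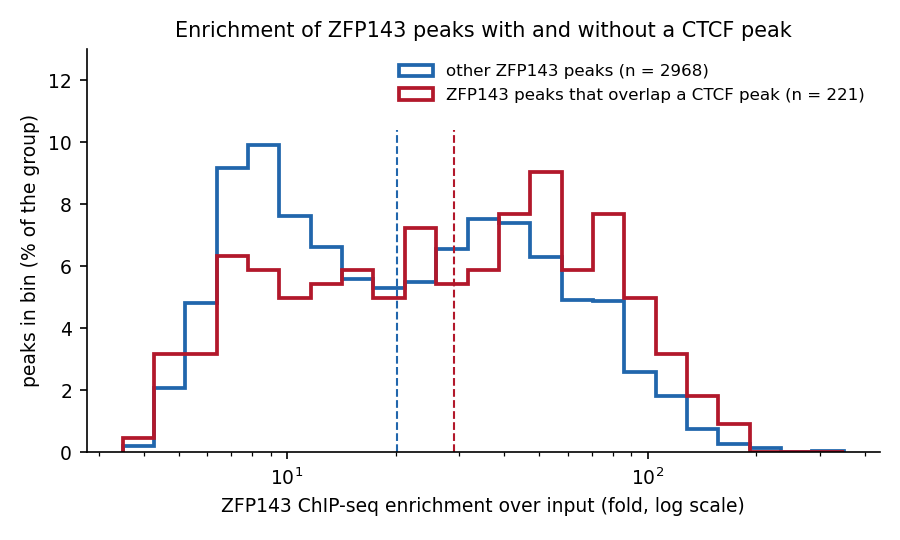
Histogram of the fold enrichment over input (log axis) of the 221 shared peaks and the 2968 other ZFP143 peaks, each as a percentage of its group, with dashed lines at the medians. The distributions cover the same range, and the median of the shared peaks (29.1) lies to the right of that of the others (20.2).

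The strongest shared peaks lay almost all over promoters. The 10 with the highest enrichment covered the starts of Specc1 (enrichment 185), of Rpgrip1l, a protein of the ciliary transition zone, and Fto, a demethylase of N6-methyladenosine in RNA (171), of Pafah2, a platelet-activating factor acetylhydrolase (150), and of Tfeb, a transcription factor of lysosomal genes (141). They went on with N4bp2l2 (136), with Mrpl34, a subunit of the mitochondrial ribosome, and Abhd8 (134), with Clpb, a mitochondrial disaggregase (128), with Ttc9b (128), with Abcb8, a mitochondrial ABC transporter (121), and with Lamtor2, a subunit of the Ragulator complex, and Ubqln4 (109). At the threshold of the rule, the overlap at the Azin1 peak (enrichment 12.5) was among the smallest, at 9 bp. Among the other ZFP143 peaks 21 (0.708%) lay within 100 bp of a CTCF peak without touching it, 164 (5.53%) within 1 kb and 595 (20%) within 5 kb.

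A promoter was defined as 2 kb upstream to 1 kb downstream of an annotated start, with the peak centre less than 2 kb from that start. By this rule 155 shared peaks (70.1%) lay at a promoter, 145 (65.6%) at a protein-coding one, against 1827 of the other ZFP143 peaks (61.6%) and 3775 of the CTCF peaks without ZFP143 (17.1%). Shared peaks at promoters had a median enrichment of 40.2, and the 66 away from promoters one of 11.3. The other ZFP143 peaks showed the same split, with 34.4 and 10.1. Within the 4 classes of enrichment the promoter share was 91.0, 80, 50 and 40% from strongest to weakest shared peaks, and 92.9, 78.7, 43.1 and 32.7% for the others. Shared and other ZFP143 peaks of like strength thus lay closer together than strong and weak peaks of either kind, and none of these differences was tested.

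The summit of a shared peak, its point of highest signal, lay a median of 95 bp from the nearest start, against 228 bp for the other ZFP143 peaks. It was within 100 bp of a start for 111 shared peaks (50.2%) and for 39.7% of the others. At promoters the median offset was -30 bp, just upstream of the start, in both groups, and 111 of the 155 summits (71.6%) lay upstream. Over gene models the summits fell into exons for 62 peaks, introns for 53 and intergenic sequence for 106 (48.0%). Genes started on both strands at 34 shared peaks. Chromosome X held 1 shared peak (0.452%), against 2.22% of the others.

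Shared peaks were GC-rich and kept their CpG dinucleotides, as promoters with CpG islands do. Their median GC content was 57.7% against 55.0% for the other ZFP143 peaks and 49.5% for CTCF peaks alone, and the median ratio of observed to expected CpG was 0.711 against 0.574 and 0.240. Their median length was 457 bp (171 to 1410) against 397 bp, and the CTCF peaks that touched them were longer (median 260 bp) than the remaining CTCF peaks (228 bp). A rule of overlap picks longer regions more readily, so nothing is read from these lengths. Since longer regions hold more letters by chance, the core letters were also counted in windows of 300 bases around summit or centre.

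CTCF core letters were found in 96 shared peaks (43.4%), in 352 of the other ZFP143 peaks (11.9%) and in 57.3% of the CTCF peaks alone. In windows of 300 bases the shares were 36.7, 7.95 and 57.1%, and 8.61% of all 32851 annotated promoters of that length held the core. Core letters of ZFP143 were found in 86 shared peaks (38.9%), in 1250 others (42.1%) and in 4.46% of the CTCF peaks alone, and in windows of 300 bases in 36.7, 40.5, 5.37 and, for all promoters, 6.40%. By letters, then, shared peaks lay near other ZFP143 peaks in ZFP143 cores and between ZFP143 and CTCF peaks in CTCF cores. Whole peaks held both cores in 26 cases (11.8%, others 4.82%), a CTCF core only in 70, a ZFP143 core only in 60 and neither in 65 (29.4%, others 50.8%). The median enrichment was 43.8 with a ZFP143 core only, 35.4 with both, 23.8 with a CTCF core only and 16.2 with neither. The ZFP143 core was found in 53.8, 41.8, 29.2 and 17.5% of shared peaks over the classes of enrichment, and in 53.9, 47.9, 35.9 and 31.2% of the others.

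The letters of the ZFP143 core lay close to the ZFP143 summit and those of the CTCF core farther off. The nearest ZFP143 core was a median of 19.0 bp from the summit in the 86 shared peaks that held one, within 25 bp in 54 (62.8%), and 15 bp in the other ZFP143 peaks. The nearest CTCF core was a median of 80.0 bp away in the 96 shared peaks that held one, within 25 bp in 14.6%. Of the 26 shared peaks with both, the ZFP143 core was nearer to the summit in 25 (96.2%), the cores lay a median of 94.5 bp apart (23.5 to 380), and in 0 of 26 did they overlap. The Tfeb and Mrpl34 sequences above are examples of this arrangement. Each stretch was cut around the summit and the marked cores, so the place of a core within it says nothing. The CTCF list used here held peak borders without summits, so the same distance could not be taken from the CTCF side.

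**Figure D2:**
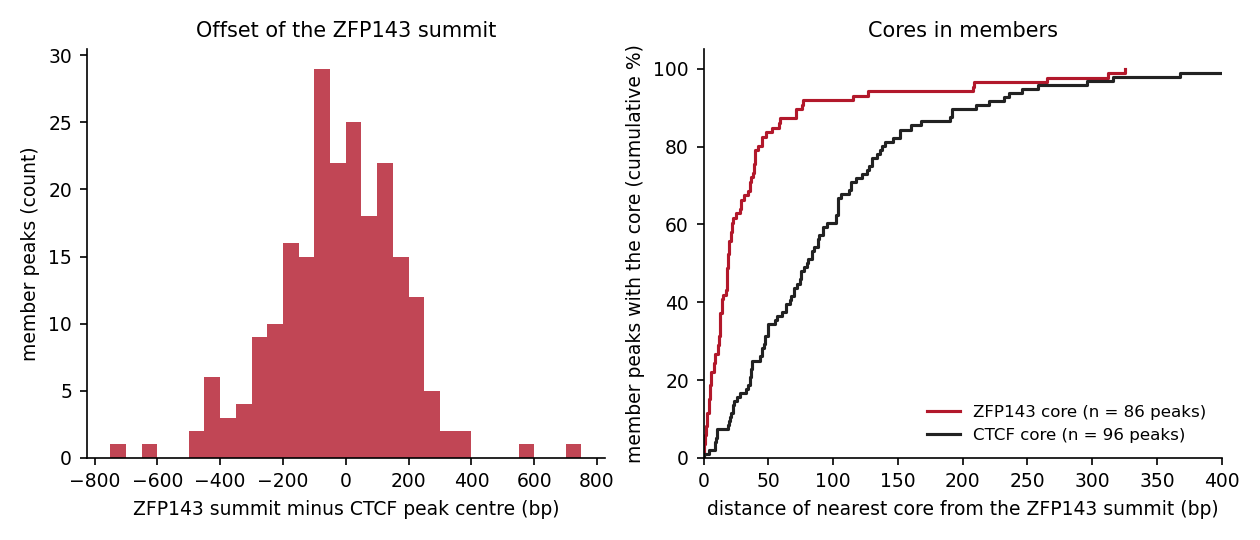
Left, histogram of the distance in bp from the centre of the overlapping CTCF peak to the ZFP143 summit for the 221 shared peaks. Right, cumulative percentage of shared peaks by the distance in bp from the ZFP143 summit to the nearest core, for 86 peaks with a ZFP143 core (median 19.0 bp) and 96 peaks with a CTCF core (median 80.0 bp), where the ZFP143 curve rises first.

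The ZFP143 summit lay a median of 115 bp from the centre of the overlapping CTCF peak (quartiles 56 and 207, highest 746). It fell inside the CTCF peak for 126 shared peaks (57%), and the overlap spanned a median of 201 bp (4 to 502). Strength and letters are given here by classes of this distance, and differences between the classes were not tested. A summit far from the CTCF centre can meet the rule of overlap only where the regions are wide, so the rule itself shapes these classes. In the 48 shared peaks with at most 50 bp between summit and CTCF centre the median enrichment was 20.9, in the 115 with 51 to 200 bp it was 27.3, and in the 58 with more it was 38.8. CTCF cores were found in 50, 49.6 and 25.9% of these, ZFP143 cores in 33.3, 38.3 and 44.8%, and promoters in 66.7, 67.8 and 77.6%. The 5 closest were at Gosr1, a Golgi SNARE (0 bp, enrichment 31.3), in an intron near Lias (2 bp, 9.51), at Zfp90 (3 bp, 78.5), at Ndufb10, a subunit of respiratory complex I (4 bp, 47.9), and in an intron near Sipa1l3 (4 bp, 10.7).

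Away from promoters, the strongest shared peaks each held a ZFP143 core and no CTCF core. They lay on chromosome 7 in an exon of Rtn2 (enrichment 100), near Lrfn3 (76.2, 10927 bp from its start), in an intron of Bcat2 near Gm31479 (73.7) and in an intron of Tulp2 near Ppp1r15a (58.8), and on chromosome 5 near Gm43695 (55.0). The sequence near Lrfn3 shows the same long ZFP143 element as Mrpl34, although no annotated gene started there.

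near Lrfn3, chr7:30373684-30373776: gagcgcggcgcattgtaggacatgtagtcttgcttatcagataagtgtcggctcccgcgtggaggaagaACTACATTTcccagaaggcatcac

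Shared peaks covered the promoters of 191 genes, 164 protein-coding and 27 non-coding, of which 7 also had another ZFP143 peak. After the filter on low counts 168 of these genes were tested in TT-seq, 156 in RNA-seq over time and 161 in the RA table, and 21 in none, while 1 was absent from the tables. TT-seq reads were counted over whole genes, introns included, and in DMSO the median level in RPKM, counts scaled for gene length and library total, was 1.90, against 1.93 for genes at other ZFP143 peaks, 1.01 for genes at CTCF peaks alone and 1.20 for all tested genes. In RNA-seq, scaled for exon length, the medians were 12, 10.9, 6.15 and 6.31 RPKM. The differences between these groups of genes were not tested.

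The libraries held 9721568 to 16532077 counts in TT-seq, 10261851 to 15316700 in RNA-seq over time and 13890761 to 27089033 in the RA table. The Zfp143 transcript, which dTAG does not target and which had no shared peak, went from 71.3 and 74.4 to 162 and 165 CPM in TT-seq at 2 h, so it does not show the loss of the protein. CPM are counts scaled to the library total over tested genes, with the TMM scaling described below. Of the cell type markers, 8 genes of embryonic stem cells summed to 3535 to 4041 CPM in TT-seq, and in RNA-seq to 5868 to 5986 in DMSO and 4184 to 4254 at 72 h. Primitive endoderm markers went from 9.52 to 12.4 CPM in DMSO to 19.5 to 20.4 at 24 h in TT-seq, and from 6.15 to 6.56 to 14.9 to 15.3 at 72 h in RNA-seq, in both libraries each time. Trophoblast markers lay at 2.31 to 6.91 CPM in TT-seq, and in RNA-seq went from 8.73 and 8.77 in DMSO to 16.6 and 17.0 at 72 h. Fibroblast markers summed to 0.533 to 1.65 CPM in TT-seq, while the RNA-seq libraries gave 2.48 and 2.78 in DMSO, 4.96 and 5.52 at 48 h and 3.89 and 2.80 at 72 h. In bulk RNA, fewer cells of a type and less RNA per cell cannot be told apart, and the part of these shifts in the results below was not tested.

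Part of the genes at shared peaks had lower nascent transcription after depletion. After 2 h, 24 of 168 genes were called lower (14.3%) by the quasi-likelihood test of edgeR (adjusted p under 0.05, absolute log2 change above 0.5), where 2.43% of all tested genes were lower and 0.168% higher. At 6 h 25 genes were lower (14.9%, all genes 2.83% lower and 0.397% higher), and at 24 h 35 were lower (20.8%) and 1 higher (all genes 4.09% and 2.02%). The share lower was 17.1, 18.5 and 22.2% for genes at other ZFP143 peaks and 0.0785, 0.432 and 1.18% for genes at CTCF peaks without ZFP143, and differences between these groups of genes were not tested. None of the genes at shared peaks was called higher at 2 h or 6 h by edgeR with the filter on low counts and no replicate block, with 5 and 6 higher at an unadjusted p under 0.05 and 1 and 1 called higher by DESeq2.

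The calls in TT-seq turned on single libraries. At 2 h the count of 24 became 15 without DMSO replicate 1, 10 without DMSO replicate 2, 6 without 2 h replicate 1 and 3 without 2 h replicate 2. At 6 h it became 13 and 15 without DMSO replicate 1 and 2, and 4 and 5 without 6 h replicate 1 and 2, and at 24 h 18 and 23, and 18 and 16, in the same order. The gene called higher at 24 h was lost without DMSO replicate 1, DMSO replicate 2 or 24 h replicate 2, and 1 gene was called higher at 2 h and 1 at 6 h without DMSO replicate 1. A test against a fold of 1.5, as used for RNA-seq, called 2, 3 and 3 genes lower at 2, 6 and 24 h.

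Over all tested genes at shared peaks, called or not, most changes were below 0. At 2 h this held for 134 of 168 (79.8%), against 49.1% of all genes, with a median of -0.33 against -0.27 at other ZFP143 peaks, 0.04 at CTCF peaks alone and 0.01 over all genes. Both 2 h libraries lay below both DMSO libraries for 101 of the 168 (60.1%), against 20.6% of all genes, and above both for 14 (8.33%), against 18.6% of all genes. The median was -0.30 at 6 h and -0.31 at 24 h.

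**Figure D3:**
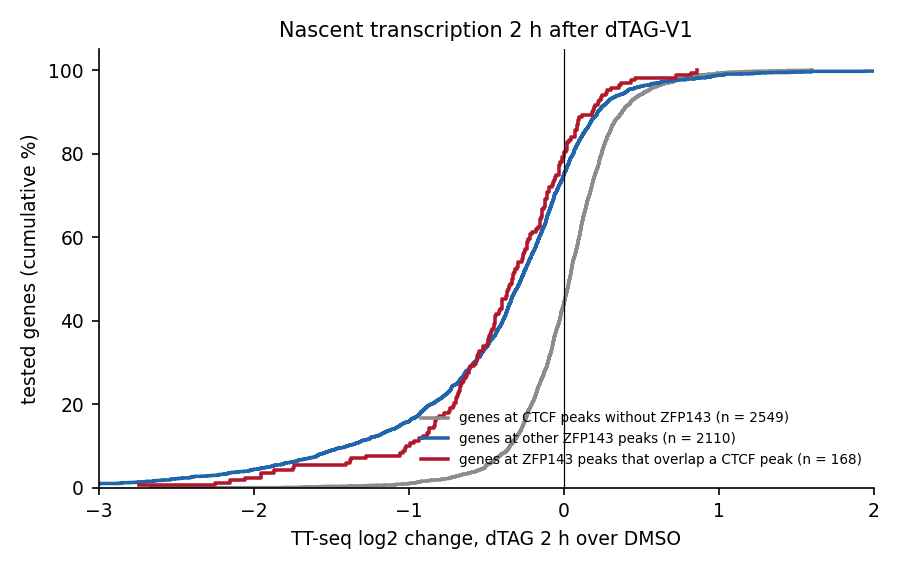
Cumulative percentage of tested genes by TT-seq log2 change after 2 h of dTAG against DMSO, for 168 genes at shared peaks, 2110 at other ZFP143 peaks and 2549 at CTCF peaks without ZFP143. The curves of both ZFP143 groups lie to the left (medians -0.33 and -0.27), and that of CTCF peaks alone is centred near 0 (0.04).

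Within the shared peaks, the share of genes lower at 2 h was 18.1% (15 of 83) in the strongest class by enrichment, 10.6% (5 of 47) in the next and 10.5% (4 of 38) in the weakest classes together, and 27.6, 14.6 and 5.54% for the other ZFP143 peaks. With the start within 100 bp of the peak centre it was 17.9% (19 of 106), and with a more distant start 8.06% (5 of 62). Genes whose shared peak held a CTCF core were lower in 14 of 70 cases (20%) and the rest in 10 of 98 (10.2%). For the ZFP143 core the counts were 10 of 72 (13.9%) and 14 of 96 (14.6%), where the other ZFP143 peaks gave 22.6 and 13.2%. Counts of this size rest on few genes, and the differences between these subgroups were not tested.

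In TT-seq at 2 h the greatest decrease among the called genes at shared peaks was that of Snapin (chr3:90488026-90491033), which encodes a SNARE-associated subunit of the BLOC-1 complex of vesicle traffic and whose peak (enrichment 101) holds the 2 CTCF cores printed above. Its TT-seq values were 15.3 and 16.8 CPM in DMSO, followed by 3.03 and 1.81 after 2 h, 3.98 and 3.31 after 6 h, then 3.05 and 1.14 after 24 h. Every treated library lay below both controls, which at 2 h was a condition for naming a gene by its change. The log2 change at 2 h was -2.74 ± 0.411 (SE, n = 2 and 2, adjusted p 0.0093 in edgeR). In RNA-seq Snapin went from 54.5 and 50.6 CPM to 4.76 and 4.56 after 24 h, 3.20 and 3.03 after 48 h, then 1.57 and 1.98 after 72 h, log2 changes of -3.49, -4.07 and -4.85. The steady-state transcript thus stood lower at each later time, and the RA table gave -3.66 before and -3.34 after RA. The call at 2 h, unlike those in RNA-seq, was lost without DMSO replicate 2 (-2.66), 2 h replicate 1 (-3.14) or 2 h replicate 2 (-2.39).

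Clpb (chr7:101663633-101795506) is a mitochondrial protein disaggregase, and its peak (enrichment 128) holds cores of both kinds, the CTCF core 368 bp from the summit and outside the printed stretch. TT-seq gave 255 and 286 CPM in DMSO, followed by 80.7 and 81.1 after 2 h, 77.6 and 77.8 after 6 h, then 60.4 and 56.4 after 24 h. The groups are well apart, with a log2 change of -1.74 ± 0.116 at 2 h (SE, n = 2 and 2, adjusted p 0.000326 in edgeR) that was called whichever library was left out. RNA-seq fell from 112 and 108 CPM to 17.1 and 18.9 at 24 h, then 13.9 and 11.7 at 72 h (-2.61 and -3.12).

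Zfp90 (chr8:106415327-106426598), a KRAB zinc finger gene, has its ZFP143 summit 3 bp from the CTCF centre and a CTCF core alone. Its TT-seq values fell from 16.7 and 14.6 CPM in DMSO to 3.82 and 3.67 at 2 h, a log2 change of -2.05 ± 0.311 (SE, n = 2 and 2, adjusted p 0.00964 in edgeR) that was not called without any 1 of the 4 libraries (-2.13 to -1.96). RNA-seq showed 16.9 and 19.7 CPM in DMSO and 1.86 and 3.74 at 24 h, with no overlap (-2.74). Snx19, a sorting nexin whose peak is far weaker (enrichment 16.2) and also has a CTCF core alone, went from 20.3 and 21.9 to 3.11 and 5.66 CPM at 2 h in TT-seq (-2.25 ± 0.281, n = 2 and 2, adjusted p 0.00435 in edgeR), a call kept without each library. In RNA-seq Snx19 stood at 15.8 and 17.8 CPM in DMSO, 4.04 and 3.74 at 24 h, and 8.23 and 8.94 at 72 h, so the decrease was smaller at the last time than at the first.

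Of the 155 genes tested in each of the 3 tables, 9 were lower in all 8 contrasts (5.81%), against 1.07% of all genes. Beside Snapin, Clpb, Zfp90 and Snx19 these were Tor2a, an ATPase of the torsin family in the endoplasmic reticulum, Gatb, a subunit of the mitochondrial glutamyl-tRNA amidotransferase, Cnih1, a cargo receptor for export from the endoplasmic reticulum, Fto and 2700081O15Rik. Their log2 changes in TT-seq at 2 h were -1.75 for Tor2a, -1.27 for Gatb, -1.06 for Cnih1, -1.02 for Fto and -1.38 for 2700081O15Rik. The call of Tor2a at 2 h was lost without any 1 of the 4 libraries (-2.08 to -1.50), that of Gatb without either 2 h library (-1.29 and -1.25), that of Cnih1 likewise (-1.03 and -1.08), and those of Fto and 2700081O15Rik without 2 h replicate 2 (-0.87 and -1.30). At 6 h the calls of Snapin (-2.27 to -2.01), Fto (-0.69 to -0.60) and Tor2a (-2.36 to -1.86) were lost without any 1 of 4 libraries, those of Zfp90 (-2.06 and -2.51), Snx19 (-2.08 and -2.08) and Cnih1 (-0.89 and -1.03) without either 6 h library and that of Gatb without 6 h replicate 1 (-1.26), and at 24 h that of Tor2a without any 1 of 4 (-2.16 to -1.52). Calls of Snx19 in RNA-seq at 72 h (-0.97) and after RA (-1.05) and of Zfp90 after RA (-1.0) ended with DESeq2, with library size alone and without single libraries, at -0.88 and -0.92 (DMSO replicate 2 and 72 h replicate 1), at -0.95 and -0.87 (DMSO RA replicate 2 and dTAG RA replicate 1), and at -0.96, -1.0 and -0.94 (DMSO RA replicate 2, dTAG RA replicate 1 and 2), and DESeq2 called neither Tor2a at any time of TT-seq nor Gatb in RNA-seq at 24 h. Clpb alone of the 9 was called in every contrast under each of these settings. In all, 58 of the 169 genes tested in any table were lower in at least 1 contrast (34.3%, all genes 14%), 10 were higher in at least 1 (5.92%, all genes 16.0%), and 102 were called in none (60.4%, all genes 70.7%).

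**Figure D4:**
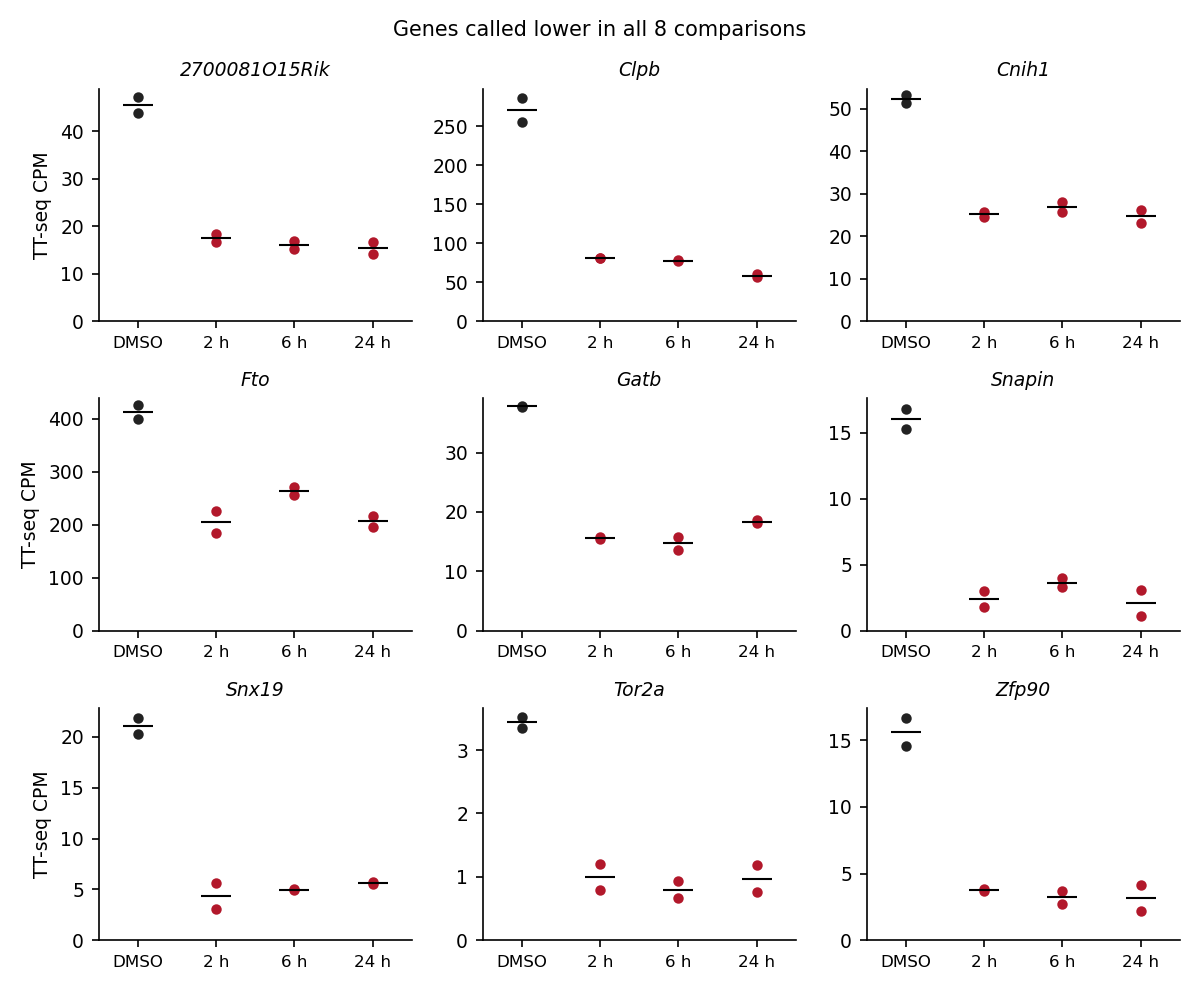
TT-seq CPM in each library (points) and group means (bars) in DMSO and with dTAG for 2, 6 or 24 h, for the 9 genes at shared peaks that were lower in all 8 contrasts, with an axis per gene. In each panel the treated libraries lie below both DMSO libraries, as for Clpb at 56.4 to 81.1 against 255 and 286 CPM. The genes were chosen for these calls, so the separation is no further result.

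Only part of the genes at the strongest shared peaks were called lower in TT-seq. Pafah2, with 3 ZFP143 cores, fell from 22.3 and 29.0 to 6.22 and 6.99 CPM at 2 h in TT-seq (-1.96 ± 0.267, n = 2 and 2, adjusted p 0.00571 in edgeR), and the call was lost without DMSO replicate 2 (-1.74), 2 h replicate 1 (-1.88) or 2 h replicate 2 (-2.04). N4bp2l2 fell from 131 and 143 to 63.8 and 74.0 CPM at 2 h (-0.99), a call lost without 2 h replicate 1 (-0.89), and was not called in RNA-seq at 24 h (-0.70, adjusted p 0.147 in edgeR). By contrast Tfeb, with a core of each kind, stood at 111 and 90.1 CPM in DMSO and 102 and 78.3 at 2 h (-0.16, adjusted p 0.804), and Abcb8, with a CTCF core, at 27.6 and 30 and at 25.5 and 26 (-0.16, adjusted p 0.744). The values of Tfeb overlapped between groups, and neither gene was called in any contrast, nor was Gosr1. Specc1, with the highest enrichment, was not called at 2 h (-0.83, adjusted p 0.362), whereas in RNA-seq it rose from 3.31 and 4.13 CPM to 12.5 and 11.0 at 72 h (1.63, adjusted p 1.57e-06).

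Some shared peaks lay at the starts of genes on both strands. Of 17 pairs of coding genes tested on both strands, 0 had both genes lower at 2 h, 1 had one gene lower and 16 had neither by edgeR, so this count says little. In that pair Fto fell from 426 and 400 to 225 and 184 CPM (-1.02 ± 0.133, n = 2 and 2, adjusted p 0.00504 in edgeR), while Rpgrip1l stood at 25.5 and 27.0 and at 14.8 and 17.5 (-0.70, adjusted p 0.202 in edgeR). Rpgrip1l was lower in RNA-seq at 24 h (-1.15), a call lost without 24 h replicate 2 (-1.0) and with DESeq2 (-1.16). Mrpl34 fell in RNA-seq from 56.1 and 56.0 to 17.0 and 16.6 CPM at 24 h (-1.74, adjusted p 2.12e-12), whereas Abhd8, which reads away from the same peak, stood at 23.1 and 20.5 and at 25.2 and 26.9 (0.26, adjusted p 1.00). Lamtor2 fell from 58.2 and 63.8 to 25.1 and 21.9 CPM at 24 h (-1.38), and its neighbour Ubqln4 was at 351 and 335 and at 313 and 326 (-0.10, adjusted p 1.00). Differences between the 2 genes of a pair were not tested.

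Peg10 and Sgce, imprinted genes on opposite strands that are expressed from the paternal allele, had a peak of modest strength (enrichment 18.4) without core letters. Peg10, which derives from a retrotransposon, stood in RNA-seq at 16.9 and 19.5 CPM in DMSO, followed by 2.10 and 2.28 after 24 h, 3.6 and 3.83 after 48 h, then 11.1 and 9.07 after 72 h. It was lower at 24 h (-3.06) and 48 h (-2.30) and was not called at 72 h (-0.88, adjusted p 0.0161 in edgeR). Sgce, which encodes epsilon-sarcoglycan and was named after its values were seen, went the other way, with 0.827 and 0.713 CPM in DMSO and 1.45 and 1.55, 3.76 and 2.76, and 7.86 and 8.25 at 24, 48 and 72 h (0.97 with an adjusted p of 0.480, then 2.09 and 3.39, both called). In TT-seq Peg10 was at 7.86 and 7.54 CPM in DMSO and 0.590 and 2.2 at 24 h (-2.40, adjusted p 0.0186, lost without DMSO replicate 1 or 2, at -2.38 and -2.41, and kept without 24 h replicate 1 or 2, at -1.80 and -3.67), while Sgce was at 4.65 and 2.51 and at 2.75 and 3.34 (-0.21, adjusted p 0.791).

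In steady-state RNA, too, part of the genes at shared peaks were lower, while the share of all genes called grew with time. At 24 h, 28 of 156 genes were lower (17.9%) and 0 higher by glmTreat of edgeR (fold of 1.5, adjusted p under 0.01), where 3.41% of all tested genes were lower and 2.32% higher, and at an unadjusted p under 0.05 or with DESeq2 0 were higher as well. At 48 h there were 35 lower (22.4%) and 5 higher (all genes 7.71% and 10.5%), and at 72 h 32 lower (20.5%) and 5 higher (all genes 12% and 13.7%). The shares lower were 17.9, 23.5 and 26% at other ZFP143 peaks and 0.859, 5.34 and 11.3% at CTCF peaks alone, with no test between these groups. At 24 h both treated libraries lay below both controls for 95 of 156 genes (60.9%), against 34.6% of all genes. The 5 genes called higher at 48 h became 3 without DMSO replicate 2, 48 h replicate 1 or 48 h replicate 2, while the counts lower held within 1.5 times (24 to 28, 31 to 32, and 27 to 35 at 24, 48 and 72 h).

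The median log2 change of the genes at shared peaks was -0.24, -0.27 and -0.27 at 24, 48 and 72 h. Scaled by library size alone, all tested genes had medians of 0.15, 0.21 and 0.23 and the genes at shared peaks -0.11, -0.07 and -0.05. Calls from different libraries met in part. Of the 24 genes lower in TT-seq at 2 h, 13 were lower in RNA-seq at 24 h (54.2% of 24 and 46.4% of 28), and over all genes 261 were (60% of 435 and 54.9% of 475). Of the 35 lower in TT-seq at 24 h, 19 were (54.3% of 35 and 67.9% of 28), and over all genes 326 (44.7% of 730 and 68.6% of 475).

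**Figure D5:**
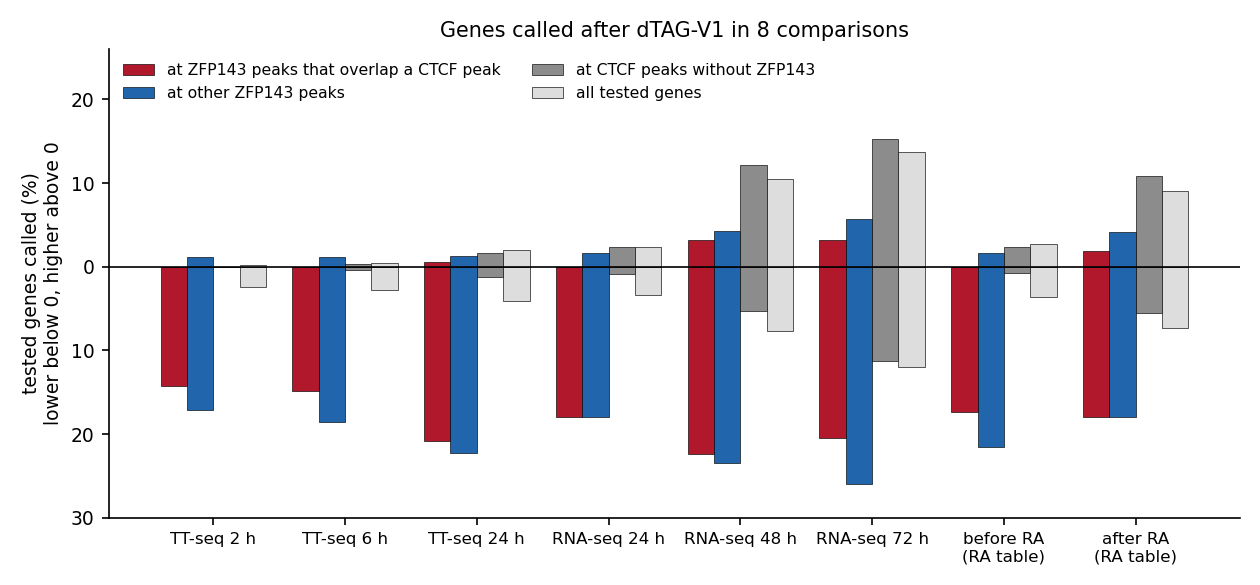
Percentage of tested genes called lower (bars below 0) and higher (bars above 0) in the 8 contrasts of dTAG with DMSO, for genes at shared peaks, at other ZFP143 peaks and at CTCF peaks without ZFP143. Both ZFP143 groups have 14.3 to 26% of their genes lower in each contrast, while CTCF peaks alone go from 0.0785% in TT-seq at 2 h to 11.3% in RNA-seq at 72 h.

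Of the 10 genes called higher in at least 1 contrast, 5 were called at 48 h and 5 at 72 h in RNA-seq. Beside Specc1 and Sgce, the lincRNA 4632415L05Rik rose from 8.91 and 12.2 CPM to 20.4 and 22.5 at 48 h (1.00), then 29.0 and 32.6 at 72 h (1.53), the zinc finger gene Ciz1 from 33.8 and 32.4 to 61.5 and 55.0 at 48 h (0.82), then 65.5 and 57.8 at 72 h (0.89), and Exog, a mitochondrial nuclease, from 13.9 and 14.4 to 31.1 and 28.3 at 72 h (1.06). The fifth gene at 48 h was 1810032O08Rik (0.82), named after its values were seen. DESeq2 called 0 genes higher at 48 h and 4 at 72 h. The call of 4632415L05Rik at 48 h was lost without DMSO replicate 1 (0.81) or 48 h replicate 2 (0.93), that of Ciz1 in the fits lacking DMSO replicate 2 (0.79) or 48 h replicate 1 (0.74), and its call at 72 h in the fit lacking 72 h replicate 1 (0.80). In TT-seq the antisense gene B930036N10Rik was at 7.14 and 6.71 CPM in DMSO and 12.3 and 17.5 at 24 h (1.11, adjusted p 0.0410 in edgeR), the one call there, lost without DMSO replicate 1 (1.15), DMSO replicate 2 (1.08) or 24 h replicate 2 (0.84).

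Before RA, in a separate set of libraries, 28 of 161 genes were lower (17.4%) and 0 higher after 24 h of dTAG by glmTreat of edgeR, where all genes gave 3.66% and 2.74%, with 4 higher at an unadjusted p under 0.05 and 0 by DESeq2. Of these 28 genes, 24 were among the 28 lower at 24 h in the time course (85.7% of each), and over all genes 392 were (67.2% of 583 and 82.5% of 475). After RA, at 48 h of depletion in all, 29 were lower (18.0%) and 3 higher (all genes 7.36% and 9.10%), with 17.9% lower at other ZFP143 peaks and 5.51% at CTCF peaks alone. With library size alone, 17 were lower after RA. The 3 higher became 1 without DMSO RA replicate 1 or dTAG RA replicate 2. The median log2 change was -0.28 before and -0.19 after RA, and with library size alone, which moved the median of all genes to 0.20 and 0.21, it was -0.15 before RA and turned to 0.02 after RA. Before RA, markers of embryonic stem cells summed to 6793 and 6961 CPM in DMSO and 6017 and 6063 in dTAG, of primitive endoderm to 4.09 and 5.04 and to 7.74 and 10.0, of trophoblast to 15.7 and 15.4 and to 11.3 and 10.8, and of fibroblasts to 3.10 and 4.24 and to 3.9 and 4.11. After RA, markers of embryonic stem cells summed to 686 to 1018 CPM in DMSO RA and 1346 to 1591 in dTAG RA, markers of fibroblasts to 6.54 to 10.3 and 25.9 to 26.2 CPM, of primitive endoderm to 30 to 31.7 and 52.0 to 54.9 CPM, and of trophoblast to 8.66 to 9.23 and 10.5 to 10.6 CPM. The part of these shifts in the values before and after RA was not tested.

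The effect of dTAG differed between the cells before and after RA at single genes. The cells after RA had also been depleted for longer and were in another medium, so time, RA and medium cannot be told apart. Peg10 was at 26.3 and 24.9 CPM in DMSO and 4.16 and 2.31 in dTAG, and at 945 and 1483 in DMSO RA and 63.6 and 83.3 in dTAG RA, with log2 effects of dTAG of -3.03 and -4.05. Sgce, at 0.997 and 1.09 in DMSO and 0.883 and 1.08 in dTAG, reached 54.9 and 58.1 in DMSO RA and 21.9 and 19.6 in dTAG RA (-0.07, then -1.44). Both genes of the pair were therefore lower after RA. Pafah2 was lower before RA (41.9 and 41.4 against 7.58 and 9.33, -2.29) and was not called after it (8.88 and 9.07 against 14.4 and 13.4, 0.63, adjusted p 0.471 in edgeR). In the RNA-seq time course, without RA, the log2 changes of Pafah2 were -2.02 at 24 h and -0.96 at 72 h. Rdh11, a retinal reductase, was at 56.8 and 58.6 against 22.3 and 22.7 CPM before RA (-1.36) and at 123 and 132 against 30.4 and 29.1 after it (-2.10). The 3 genes higher after RA were Cenpt, a kinetochore protein (0.77, lost without DMSO RA replicate 1 at 0.76, DMSO RA replicate 2 at 0.80 or dTAG RA replicate 2 at 0.74), Shisa7 (0.89, lost without DMSO RA replicate 1 at 0.84 or dTAG RA replicate 2 at 0.83), and Grk4 (1.93), named after its values were seen, and DESeq2 called 0 higher there. The calls of Cenpt and Shisa7 were also lost without the filter on low counts (0.73 and 0.85), and that of Cenpt with the replicate block (0.77).

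The test of a difference between 2 effects of dTAG, adjusted over all genes by edgeR with an absolute log2 difference above 0.5, called 18 of the 50 named genes tested (36%) between 24 h and 72 h in RNA-seq, 8 of them more negative and 10 more positive at 72 h, where 16.7% and 18.7% of all genes were called. Between the effects before and after RA it called 24 of 50 (48%), 13 more negative and 11 more positive after RA, where 18.0% and 13.7% of all genes were called. Between 2 h and 24 h of TT-seq it called 0 of the named genes, where 0.0560% and 0.0336% of all genes were called. At an unadjusted p under 0.05 7 of the 54 named genes tested differed between these times, and DESeq2 was not run on differences of effects.

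By function, genes at shared peaks included members of several housekeeping lists, though few of each. In TT-seq at 2 h, 2.43% of all tested genes were lower, and no list was tested as a set. Of the 90 tested nuclear subunits of oxidative phosphorylation, 9 were lower in TT-seq at 2 h, among them 2 of the 5 at shared peaks, Atp5mpl, a small subunit of ATP synthase (43.5 and 39.9 to 17.3 and 23.3 CPM, -1.03, adjusted p 0.0363 in edgeR) and Ndufab1, the mitochondrial acyl carrier protein (63.4 and 74.4 to 33.9 and 43.2, -0.84, adjusted p 0.0271). The first call was lost without any 1 of the 4 libraries (-1.26 to -0.84) and the second without DMSO replicate 2 (-0.70), 2 h replicate 1 (-0.67) or 2 h replicate 2 (-1.01). Ndufb10, whose summit is 4 bp from the CTCF centre, was at 11.6 and 11.9 CPM and at 8.05 and 6.75 (-0.67, adjusted p 0.300), and Ndufv1 at 25.3 and 21.9 and at 18.6 and 18.1 (-0.36, adjusted p 0.504). Both had each 2 h library below each control, which held for 60.1% of the tested genes at shared peaks and 20.6% of all tested genes. Of 78 proteins of the mitochondrial ribosome 7 were lower at 2 h, and 0 of the 3 at shared peaks by edgeR. Mrpl34 was called at 6 h (-1.39) and 24 h (-1.18) in TT-seq, calls lost without any 1 of the 4 libraries (-1.54 to -1.24 and -1.36 to -0.98) and with DESeq2.

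Over all tested genes in TT-seq, 2.43% were lower and 0.168% higher at 2 h, and 2.83% were lower at 6 h. Of 81 cytosolic ribosomal proteins 3 were lower at 2 h and 21 at 6 h, and of the 3 at shared peaks 0 and 2, among them Rpl11 (-0.72 at 6 h). The call of Rpl11 ended without DMSO replicate 1 (-0.58), 6 h replicate 1 (-0.61) or 6 h replicate 2 (-0.84). Of 356 tested zinc finger genes 35 were lower and 2 higher at 2 h, with 1 of 6 at shared peaks lower, Zfp90. Zfp595 stood at 7.86 and 10.1 CPM in DMSO and 2.31 and 2.59 at 2 h (-1.87, adjusted p 0.0798 in edgeR) and was lower in RNA-seq at 24 h (-1.80), a call lost with DESeq2 (-1.81). None of the 37 tested tRNA synthetases, cytosolic and mitochondrial, had a shared peak, and 2 of that list were lower at 2 h.

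Ctcf itself had a shared peak (enrichment 78.8, without core letters) 211 bp from its start at chr8:105636568. Its TT-seq values were 267 and 336 CPM in DMSO and 257 and 298 at 2 h, with overlap between the groups (-0.12, adjusted p 0.850 in edgeR), and it was not called in any contrast. Of the 14 genes for CTCF and cohesin, it was the one with a shared peak, and 1 of the 14 was lower at 2 h (all genes 2.43%). Thap11, which acts together with ZFP143 and the co-regulator HCFC1, shared a peak with Cenpt (enrichment 83.3, with a CTCF core and, 265 bp from the summit and outside the printed stretch, a ZFP143 core) and stood at 8.17 and 8.0 CPM in DMSO and 6.14 and 10.9 at 2 h (0.08, adjusted p 0.948), again without a call in any contrast.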

How the data were processed

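The members and gene lists described here were chosen with earlier results of these data known. Peaks came from ChIP-seq against the HA tag and against CTCF, the latter with 10% HCT116 cells added. The authors called peaks with MACS2, ZFP143 at a q-value limit of 0.01 and CTCF at 0.05 with DMSO and dTAG peaks pooled, and deposited 1 list per factor, without replicates. In the deposited ZFP143 list each peak has a ratio, its fold enrichment over the input, and a q-value given as −log10. The CTCF list gives positions. Coordinates are mm10 (GRCm38).

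Expression came from 3 tables of raw counts that the authors deposited, made from STAR alignments to mm10 with the genes of GENCODE vM25. TT-seq reads were freed of duplicates and split by strand before HTSeq counted them over whole genes, and RNA-seq reads were counted by STAR. Of 55401 genes, 55141 matched GENCODE vM21 by identifier without version, which gave symbols and starts. Signal tracks, Hi-C, ATAC-seq and 4C values were not analysed here, and some items are not reported here.

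Overlaps of at least 1 bp defined the shared peaks. Promoters used the starts of coding and long non-coding transcripts (2 kb upstream to 1 kb downstream, peak centre under 2 kb away). Core letters are descriptions and not a motif model. Genes with over 10 counts in at least 4 of 8 libraries were tested (17870 in TT-seq, 13925 in RNA-seq, 15915 in the RA table) with edgeR 4.0.16 in R 4.3.3, 1 fit per table over its 4 groups with TMM scaling, by the quasi-likelihood test for TT-seq and by glmTreat for RNA-seq and RA. The common biological coefficient of variation was 17.2, 3.65 and 5.92%. P-values were adjusted over all tested genes after Benjamini and Hochberg. CPM are counts scaled by TMM to the total over tested genes. Fits were tested on simulated counts. DESeq2 1.42.0 and limma 3.58.1 served alternatives and edgeR itself. Overlapping and antisense genes are uncertain where reads cannot be assigned to one of them.

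Named genes were Zfp143, Ctcf, the genes at the 10 strongest shared peaks and at the 5 nearest to a CTCF centre, the nearest genes of the 5 strongest away from promoters, listed genes at shared peaks, and the called genes of greatest change in each contrast (12 lower and 5 higher in TT-seq at 2 h, otherwise 5 and 3), with a mean count of at least 50 and treated libraries clear of both controls.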

Additional observations from a re-analysis of the deposited data

Results flagged for a closer look

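At 42 places the effect of dTAG on a named gene differed between times or with RA by the test of the difference itself (quasi-likelihood test of edgeR, adjusted over all genes, absolute log2 difference above 0.5). Between 24 h and 72 h of RNA-seq, 18 of the 50 named genes tested (36%) differed, where 16.7% of all genes were more negative and 18.7% more positive at 72 h. That share is near the one over all genes and is no result about the named genes. The effect was more negative at 72 h for Ttc9b (-1.78), Snapin (-1.37), Rab29 (-0.84), Mrpl34 (-0.64), Rpl11 (-0.63), Clpb (-0.51), Mrpl17 (-0.51) and Rpl36 (-0.51), as log2 differences. It was more positive at 72 h for Peg10 (2.19), 4632415L05Rik (1.43), Snx19 (1.14), Pafah2 (1.06), Specc1 (0.98), 2700081O15Rik (0.67), Ciz1 (0.67), Ppp1r15a (0.59), Exog (0.58) and Zfp282 (0.53). Of these, Peg10, Snx19, Pafah2 and 2700081O15Rik were lower at 24 h and moved back towards DMSO, while Specc1, Exog, Ciz1 and 4632415L05Rik were above DMSO in both libraries at 72 h. Ttc9b had low levels, at 1.38 and 0.784 CPM in DMSO and 0.278 and 0.477 at 72 h, and was not called lower at 72 h.

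Between the effects before and after RA, 24 of 50 (48%) differed, where 18.0% of all genes were more negative and 13.7% more positive after RA. Some of the named genes were chosen for the size of their change in the same libraries, so nothing is read from these shares. The effect was more positive after RA for Pafah2 (2.92), Zfp90 (2.62), Tor2a (1.62), Clpb (1.41), Ppp1r15a (1.37), Rpgrip1l (1.29), Snx19 (1.03), Fto (0.75), Mrpl34 (0.68), Dtx2 (0.67) and Shisa7 (0.67). Of these Zfp90, Tor2a, Clpb, Snx19, Fto and Mrpl34 were lower both before and after RA. It was more negative after RA for 13, among them Rpl11 (-1.28), Peg10 (-1.02), Zfp568 (-0.89), Abcb8 (-0.85), Cnih1 (-0.76), Rpl36 (-0.75), Rdh11 (-0.74), Mrpl17 (-0.69), Ndufb10 (-0.56), Zfp219 (-0.56), Atp5mpl (-0.51) and Zfp746 (-0.50). The cells after RA had been depleted for longer than those before it, and time, RA and the change of medium cannot be told apart here.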

How the results depend on the processing

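Defining shared peaks by a summit inside the CTCF peak left 126 of them, and the CTCF core was then found in 53.2%. An enrichment of at least 10 moved the median enrichment to 39.2 and the promoter share to 78.5%. With CCANNAGNNGGC as the CTCF core the share was 20.4%, within 100 bp of the summit 25.8%, and with the first ZFP143 core alone the ZFP143 share was 16.3%. In TT-seq, glmTreat called 2, 3 and 3 genes lower at 2, 6 and 24 h and 0 higher at 24 h. DESeq2 called 1 and 1 higher at 2 h and 6 h, 0 higher in RNA-seq at 48 h and 0 after RA. Without a filter 1 and 1 were higher at 2 h and 6 h, 8 in RNA-seq at 72 h and 2 before RA. The TT-seq thresholds gave 2 higher in RNA-seq at 24 h. They called 57 genes lower with 11 higher at 48 h, 51 with 11 at 72 h, 50 and 5 before RA, and 54 and 12 after RA. With library size alone 9 were higher at 48 h and 17 lower after RA. The cause of these shifts was not tested. No named gene reversed a called change in the alternatives run, while the median log2 change of genes at shared peaks after RA went from -0.19 to 0.02 with library size alone.

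With the replicate block, TT-seq had 34, 46 and 51 genes lower after 2, 6 and 24 h and 1, 3 and 3 genes higher. Replicates of a number share only that number, with correlations of their deviations of 0.28, 0.19 and 0.63 in TT-seq, -0.04, 0.03 and 0.06 in RNA-seq, and 0.07 and 0.13 in the RA table, and with 2 numbers this was not read as pairing.

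Leaving out 1 library gave 3 to 15 genes lower at 2 h, 4 to 15 at 6 h and 16 to 23 at 24 h of TT-seq, and 0 to 1 higher each time. It gave 24 to 28, 31 to 32 and 27 to 35 lower and 0 to 0, 3 to 4 and 4 to 5 higher in RNA-seq at 24, 48 and 72 h, and 24 to 27 and 23 to 27 lower and 0 to 0 and 1 to 3 higher before and after RA. Of the named genes at shared peaks called in TT-seq, 2 of 15 kept the call without each library at 2 h, 4 of 19 at 6 h and 11 of 23 at 24 h, against 18 of 20, 18 of 22 and 18 of 22 in RNA-seq at 24, 48 and 72 h, and 16 of 18 and 15 of 22 before and after RA. The planned 4C alternative was not run, since 0 shared peaks lay within 500 kb of a viewpoint.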
